A study of Homo sapiens with 8 samples.

Results

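The loci of the paralogous genes NR2F2 and NR2F1 were examined in maps of accessible chromatin from surface ectoderm made with or without the transcription factor p63. Members were all sites, in either of the authors' lists, whose centre lay between 96.2 and 97.4 Mb of chromosome 15 (the NR2F2 interval, 1.2 Mb) or between 92.4 and 93.4 Mb of chromosome 5 (the NR2F1 interval, 1.0 Mb), on hg19. This gave 36 of 14191 listed sites, 21 in the NR2F2 interval and 15 in the NR2F1 interval. Sites were chosen by position alone, but the loci were selected on the presence of listed sites near these genes, with earlier results of the lists known. The numbers of sites are therefore a description and were not tested.

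Accessibility had been assayed by ATAC-seq, in which a transposase inserts adapters into open DNA, in H9, a human embryonic stem cell line, with 8 samples at 2 per group. The groups were p63-/- cells at day 7 of differentiation, TetO:Tp63+/- cells (an inducible p63 line) at day 0 after 2 days of doxycycline at 2 ug/ml, wild-type cells at day 7 and wild-type cells at day 0. All day 7 cultures, p63-/- and wild type alike, had received retinoic acid (1 uM) and BMP4 (5 ng/ml), and the cells are labelled surface ectoderm, the epithelium from which epidermis forms. All samples descend from 1 cell line, and whether p63-/- cells are 1 clone or several is not given in the sources used here. Of the 2 lists analysed, the p63-closed list (6037 sites) is named for sites opened by morphogens and closed by p63 and is attached to the p63-/- and wild-type samples at day 7. The opened list (8154 sites) is named for sites opened by morphogens and is attached to wild-type cells at day 7 and day 0. Neither was attached to the inducible line, which does not enter the results. By their names both lists hold sites opened by morphogens. Whether a site could enter both is not given in the sources used here. Below, an opened site is a site of the opened list. The lists give positions and no signal, so depth is unknown, no value per culture can be shown, the direction of each change is the authors', and neither the loss of p63 nor the labelled cell types could be checked.

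NR2F1 and NR2F2 encode COUP-TFI and COUP-TFII, nuclear receptors that bind DNA as dimers at repeats of the half-site AGGTCA. They mostly repress transcription, and they can occupy the same repeats as retinoic acid receptors and so oppose them. Both genes are known to be induced by retinoic acid in pluripotent and embryonal carcinoma cells. In the mouse, Nr2f1 is known for patterning of the cerebral cortex and for cranial nerves, and Nr2f2 for venous identity and heart atria. In the gene table an antisense RNA gene overlaps each receptor gene, NR2F2-AS1 and NR2F1-AS1.

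Promoter windows of both genes are shown to give the sequence at starts annotated for them and to look there for half-sites of these receptors and for a motif of ectodermal TFAP2 factors. They are RefSeq sequences of GRCh38.p14, plus strand, from 250 bases before to 50 after an annotated start. The table holds 2 starts for each gene. Both NR2F2 starts lie inside the annotated gene, and the start of its longest transcript is not among those used here. The second NR2F1 start lies downstream of the start of its gene. The values below therefore hold for these windows only. One window per gene is printed, the NR2F1 window at the start of the annotated gene and the NR2F2 window that held a motif match, with that match in capitals. Their coordinates cannot be compared with the hg19 sites, so no site is placed at or away from a promoter here.
NR2F2, chr15:96333515-96333814: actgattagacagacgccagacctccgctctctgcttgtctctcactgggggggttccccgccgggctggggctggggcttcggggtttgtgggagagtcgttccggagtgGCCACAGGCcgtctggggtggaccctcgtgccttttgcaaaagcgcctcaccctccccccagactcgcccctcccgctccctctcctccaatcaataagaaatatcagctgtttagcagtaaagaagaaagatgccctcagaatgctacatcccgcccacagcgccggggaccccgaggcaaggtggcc
NR2F1, chr5:93582972-93583271: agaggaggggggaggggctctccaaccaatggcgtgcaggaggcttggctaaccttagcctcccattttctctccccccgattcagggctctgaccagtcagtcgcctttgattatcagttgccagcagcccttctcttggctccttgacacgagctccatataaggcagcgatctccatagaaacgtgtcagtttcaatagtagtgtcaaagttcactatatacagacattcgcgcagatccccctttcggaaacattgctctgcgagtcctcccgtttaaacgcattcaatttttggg

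The printed NR2F2 window has 62.0% G or C and the printed NR2F1 window 51.3%, where the median over all 35116 promoter windows is 58.7%. The windows not printed have 61.0% (NR2F2) and 31.3% (NR2F1). The capitals mark GCCACAGGC, a match to GCCNNNGGC, the core bound by TFAP2 factors, and it starts 139 bases before the annotated start. That motif occurs in 23.2% of all windows, so a match is common. The half-site AGGTCA, searched on both strands as an exact string, is in 0 of the 4 windows of the genes and in 13.8% of all windows. Variants of the half-site are not counted there. With 1 mismatch allowed it matched 4 times at NR2F2 and 5 times at NR2F1, and 89.7% of all windows then match. Direct repeats of that half-site with 1 or 5 bases between, each of which contains it, are in 0 of the 4 and in 0.0228% and 0.0057% of all windows. These letters say nothing of binding elsewhere in the loci.

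More p63-closed than opened sites were found at NR2F2, and the reverse at NR2F1. The NR2F2 interval held 15 p63-closed and 6 opened sites, and the NR2F1 interval held 5 p63-closed and 10 opened sites. The p63-closed share was therefore 71.4% at NR2F2 (exact 95% interval 47.8 to 88.7%) and 33.3% at NR2F1 (11.8 to 61.6%), against 42.5% of all listed sites. At NR2F1 the share was 45.0%, above that of all listed sites, when 100 kb was added at both ends of the interval (9 p63-closed and 11 opened sites), and again 33.3% when 100 kb was taken off both ends (4 and 8). The exact intervals cover counting error only and overlap each other, and the sites of a locus are not independent. The exact interval at NR2F2 lies above the share of the whole series and that at NR2F1 includes it; since the loci were chosen with such counts known, neither was read as a test. Each locus also lies on a chromosome with its own mix. On the rest of chromosome 15 the share was 53.3% (176 p63-closed and 154 opened sites), inside the exact interval at NR2F2, and on the rest of chromosome 5 it was 48.9% (464 and 485), inside the exact interval at NR2F1.

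**Figure D1:**
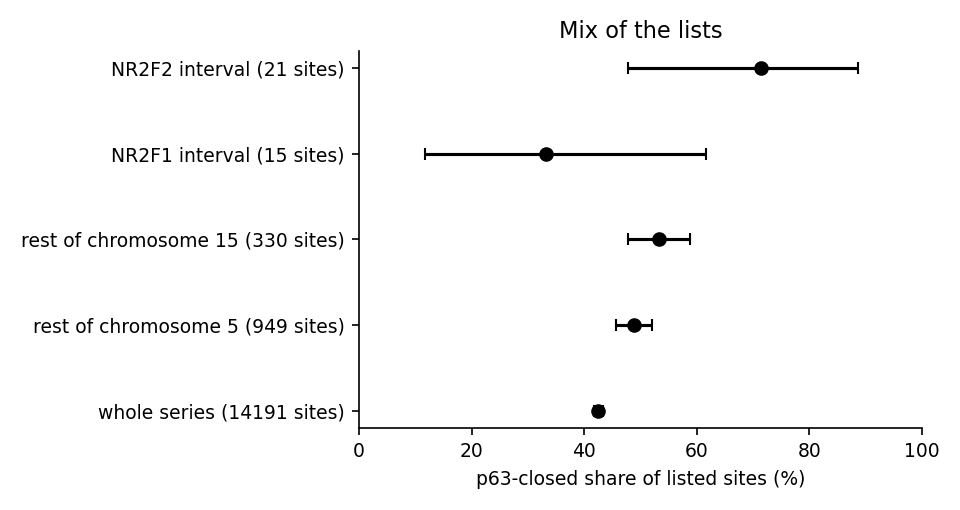
Share of listed sites that are p63-closed (x axis, %) in the NR2F2 and NR2F1 intervals, on the rest of their chromosomes and in the whole series. Points are shares and bars exact 95% binomial intervals, which cover counting error only; NR2F2, at 71.4%, is highest and NR2F1, at 33.3% (45.0% with 100 kb added at both ends), is lowest, with overlapping bars.

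Both loci were rich in sites. Per 1000 entries of the numbered catalogue from which both lists appear to be drawn, the NR2F2 interval held 17.5 p63-closed sites (exact Poisson 95% interval 9.81 to 28.9) and 7.01 opened sites (2.57 to 15.3). The NR2F1 interval held 7.44 p63-closed sites (2.42 to 17.4) and 14.9 opened sites (7.13 to 27.4). Over the whole catalogue 0.33% of entries are listed as p63-closed and 0.445% as opened, or 3.30 and 4.45 per 1000. The NR2F2 interval thus held p63-closed sites at 5.30 times and opened sites at 1.58 times the density of the whole lists, and the NR2F1 interval at 2.25 and 3.35 times. The Poisson intervals for p63-closed sites at NR2F2 and for opened sites at NR2F1 lie above the whole-list densities, while those for opened sites at NR2F2 and p63-closed sites at NR2F1 include them. These intervals cover counting error only, and sites of a locus are not independent. The loci were chosen with such counts known, so the intervals were not read as a test. Catalogue entries themselves were about evenly dense in both loci, 1 per 1403 bp at NR2F2 and 1 per 1488 bp at NR2F1.

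The same counts were set beside those of adjoining genome windows of equal length. Because the loci were chosen with such counts known, the shares below describe them and were not read as a test. Among 2533 windows of 1.2 Mb, 3 (0.118%) held at least the 15 p63-closed sites of the NR2F2 interval, or 5 of 2523 (0.198%) with the windows shifted by 0.6 Mb, and the mean was 2.38. Its 6 opened sites were reached in 427 windows (16.9%; mean 3.22), so only the p63-closed count of NR2F2 is at the edge of the genome's range. Among 3037 windows of 1.0 Mb, 60 (1.98%) held at least the 10 opened sites of the NR2F1 interval (mean 2.68), and 380 (12.5%) held at least its 5 p63-closed sites (mean 1.99). Windows without any listed site are included, and the loci were placed around genes and not on this grid. Even so, 1 of the 3 unshifted windows held the sites of the NR2F2 interval themselves (15 p63-closed and 6 opened), so the locus is counted among them. On chromosome 15 the NR2F2 interval takes up 1.69% of the catalogue entries and holds 7.85% of the 191 p63-closed sites and 3.75% of the 160 opened sites. On chromosome 5 the NR2F1 interval takes up 0.568% of the entries and holds 1.07% of the 469 p63-closed sites and 2.02% of the 495 opened sites.

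**Figure D2:**
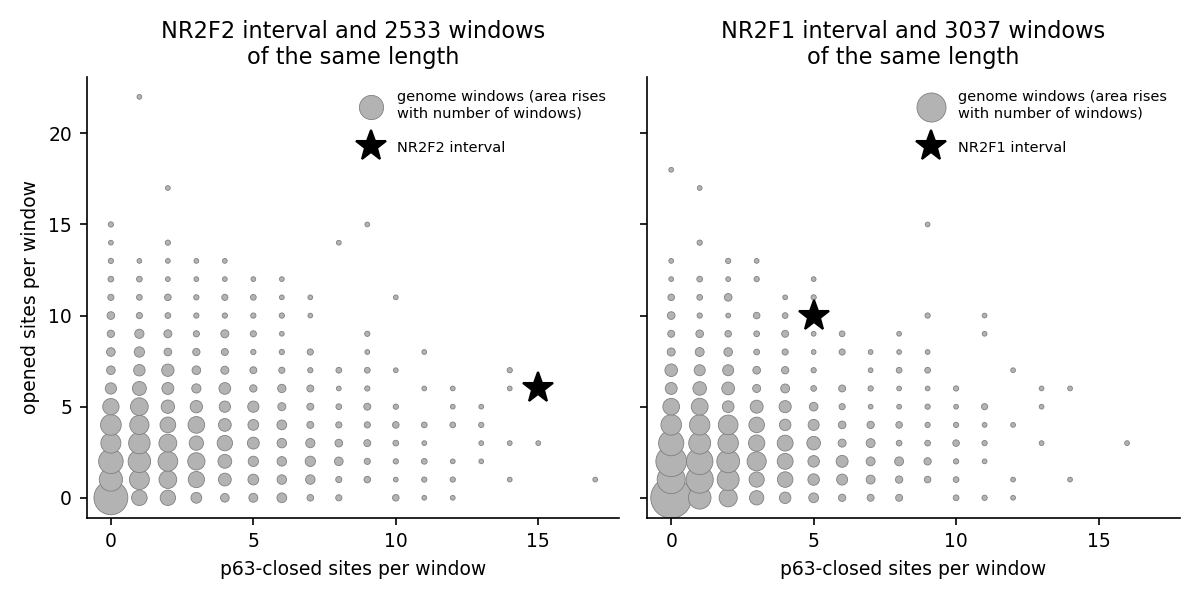
Number of p63-closed sites (x axis) and opened sites (y axis) in the NR2F2 interval (left, star) and the NR2F1 interval (right, star), with all genome windows of the same length in grey, point area rising with the number of windows. The NR2F2 star (15 and 6) stands far to the right, and the NR2F1 star (5 and 10) stands in the upper part of its cloud.

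Along the NR2F2 interval the sites fell into a stretch of p63-closed sites, a mixed stretch, and a nearly empty remainder. The interval opened with 7 p63-closed sites in a row, from 96258175 to 96486867 (229 kb), with no opened site between them. Their widths ran from 1137 to 1936 bp. In the whole series 4.73% of the 2729 unbroken runs of p63-closed sites have at least 7 members, and they hold 19.4% of p63-closed sites, so a run of this length is uncommon but not rare. The run ended at the closest pair of the locus, which joined the lists: the p63-closed site from 96485642 to 96486867 and the opened site from 96490038 to 96491137, with centres 4.33 kb apart. Of all neighbouring listed sites, 4.11% are as close. Beyond it lay 2 more p63-closed sites, at 96526784 to 96527906 and 96665160 to 96667251.

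The densest stretch of either locus came next. From 96714090 to 96767534, a span of 53.4 kb, there were 6 sites, in the order opened, p63-closed, opened, p63-closed, p63-closed, opened. Their centres were 8.09 to 13.6 kb apart, and their catalogue numbers differed by 4 to 6, so the unlisted entries between them were few. Of 14076 stretches of 6 consecutive listed sites in the genome, which overlap each other, 21 (0.149%) were no longer than this one, and 2 of the 21 held 3 sites of each list, this stretch included. Such density is therefore rare among listed sites, but the stretch was singled out for being dense and its own length set the cutoff. The share of 0.149% thus describes it and was not a test. The lists were evenly mixed in this stretch.

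These 6 sites belonged to a wider group of 11, with 6 p63-closed and 5 opened sites, each within 50 kb of the next, from 96665160 to 96901035 (236 kb). Groups so defined number 1060 in the genome, with a median of 3 sites, and 5 of them (0.472%) have 11 or more. The widest p63-closed site of the locus lay in this group, from 96807172 to 96809526 (2355 bp). So did its widest opened site, from 96765299 to 96767534 (2236 bp). The group ended with 2 neighbouring opened sites (96859918 to 96860701 and 96899785 to 96901035), the only neighbouring pair of opened sites in the interval. After them came 269 kb without a listed site, then 1 p63-closed site from 97170078 to 97171235, and none in the last 229 kb. Of all neighbouring listed sites, 76.2% are no farther apart than the 2 sites around the 269 kb gap, so a gap of that length is not rare. The first 600 kb of the interval held 12 p63-closed and 4 opened sites, and the last 600 kb held 3 p63-closed and 2 opened sites.

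**Figure D3:**
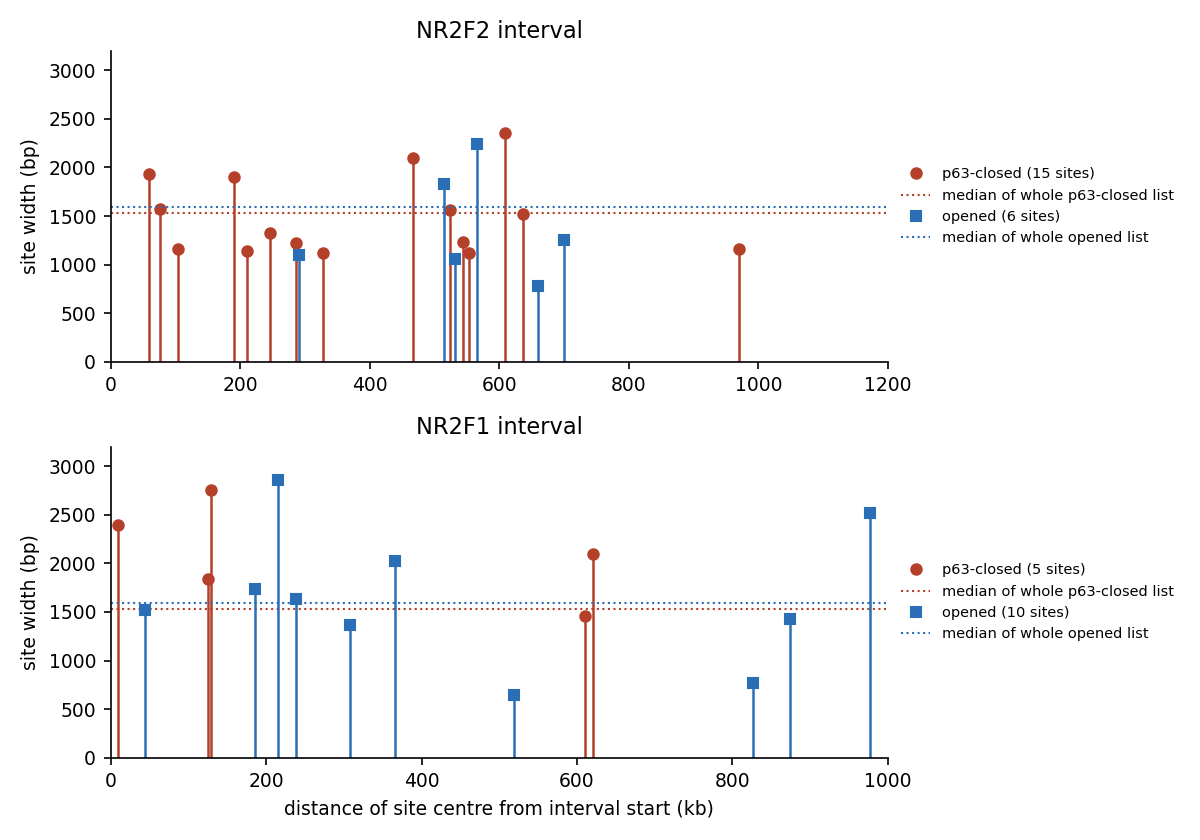
Position (x axis, kb from the start of the interval) and width (y axis, bp) of each listed site in the NR2F2 interval (top) and the NR2F1 interval (bottom), p63-closed sites as circles and opened sites as squares. Dotted lines give the median width of each whole list, 1531 bp for p63-closed and 1597 bp for opened sites; all but 1 of the NR2F2 sites lie before a gap of 269 kb, and at NR2F1 opened sites alone fill the stretch from 186 to 519 kb.

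At NR2F1 the longest run of one list was of opened sites, and the p63-closed sites lay at the start of the interval and past its middle. The first p63-closed site of the interval, from 92408303 to 92410698, was followed by an opened site from 92442789 to 92444309. Next was the closest pair of the locus, and both of its sites were p63-closed: 92524273 to 92526115 and 92527650 to 92530406, with 1.53 kb between their edges and 1 catalogue entry between them. The second of these is also the widest p63-closed site of the locus, at 2757 bp. Then 6 opened sites lay in a row, from 92584990 to 92918987 (334 kb), with no p63-closed site between them. Of the genome's 2743 unbroken runs of opened sites 12.7% have 6 or more, and these hold 41.8% of opened sites. Such a run is thus longer than most (median 2 sites), but a large part of opened sites lies in runs at least as long. The first 3 of the 6 formed the only group of 3 or more sites each within 50 kb of the next that lay wholly in the interval, from 92584990 to 92639821 (54.8 kb). They included the widest opened site, from 92614489 to 92617350 (2862 bp). Another group was cut by the edge of the interval. Its first p63-closed member lay 28.6 kb from a p63-closed site outside the interval and 34.0 kb from the opened site after it.

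The sixth opened site of that run, from 92918345 to 92918987, was the narrowest member of either locus, at 643 bp, and stood alone, 153 kb from the opened site before it and 91.4 kb from the p63-closed site after it. Only 1.12% of opened sites are narrower. A pair of p63-closed sites followed, at 93009291 to 93010748 and 93020002 to 93022094, with 9.25 kb between their edges. The interval closed with 3 opened sites, at 93226199 to 93226967, 93273278 to 93274702 and 93375361 to 93377880. All 5 p63-closed sites at NR2F1 had another p63-closed site within 50 kb: 4 of them form the 2 pairs, and the neighbour of the first lies outside the interval. Another opened site was as near to 5 of its 10 opened sites. Over the whole lists these shares are 41.8% for p63-closed and 40.3% for opened sites.

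Sites of different lists lay nearer each other at NR2F2 than at NR2F1. At NR2F2 an opened site lay within 50 kb of 9 of 15 p63-closed sites (60.0%), and a p63-closed site within 50 kb of 5 of 6 opened sites (83.3%). At NR2F1 the counts were 1 of 5 p63-closed sites and 1 of 10 opened sites. Over the whole lists the shares are 28.9% of p63-closed and 22.0% of opened sites. For p63-closed sites the closest opened site was at a median of 44.4 kb at NR2F2 and 60.7 kb at NR2F1, against 120 kb over the whole list. For opened sites the closest p63-closed site was at a median of 11.0 kb at NR2F2 (range 4.33 to 63.5 kb) and 101 kb at NR2F1 (34.0 to 237 kb), against 197 kb over the whole list. Both 50 kb counts at NR2F1 come from the same pair of sites, 34.0 kb apart, and are too small to set against the shares of the whole lists. By the medians the lists were nearer each other at both loci than over the whole lists. Both members of a neighbouring pair were of one list in 10 of 20 pairs at NR2F2 and in 9 of 14 at NR2F1 (64.3%), against 61.5% of all such pairs. These distances fall as sites become denser, and density was what marked the loci, so they were not tested.

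Neighbouring sites were closer at NR2F2, with a median of 28.6 kb between centres (range 4.33 to 270 kb, 20 pairs), than at NR2F1, with 57.4 kb (3.83 to 206 kb, 14 pairs). The median over all 14168 neighbouring pairs is 96.4 kb. Of the pairs, 17 of 20 were within 50 kb at NR2F2 and 6 of 14 at NR2F1, against 34.4% in the genome. Sites per Mb differed less, at 17.5 and 15.0 in that order, and the NR2F2 sites crowded into part of their interval. Of its 12 bins of 100 kb, 3 held no site, 3 held both lists, and the fullest, from 96700001 to 96800000, held 6 sites. Of the 10 bins at NR2F1, 2 held no site, 2 held both lists, and the fullest, from 92500001 to 92600000, held 3.

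**Figure D4:**
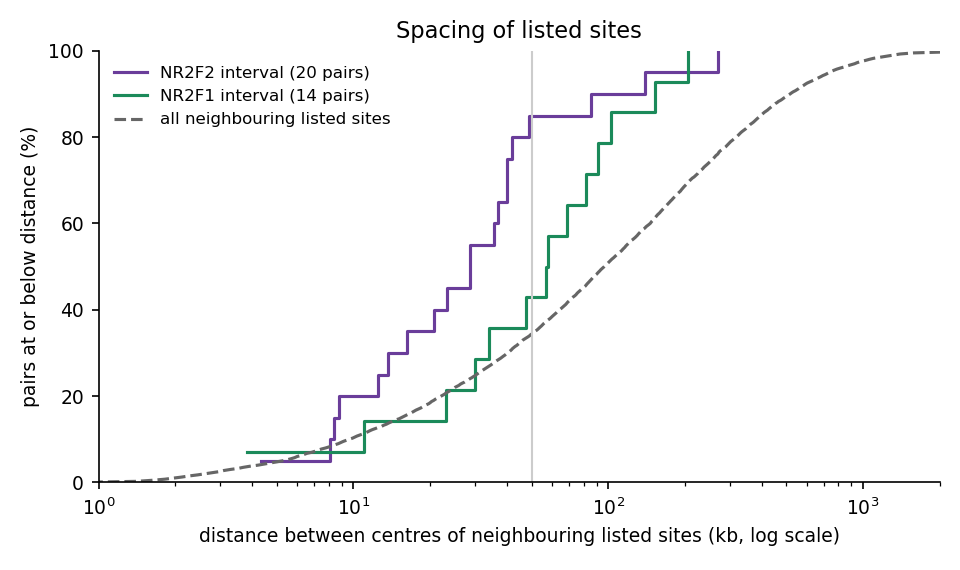
Share of neighbouring pairs (y axis, %) at or below a given distance between centres (x axis, kb, log scale) at NR2F2 (20 pairs), at NR2F1 (14 pairs) and over all neighbouring listed sites (dashed). The pale line marks 50 kb, where the curves stand at 85.0% for NR2F2, 42.9% for NR2F1 and 34.4% for all pairs.

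Width is a measure the choice of members did not use, although it is the authors' call and its dependence on depth is unknown. At NR2F2 the median was 1325 bp for p63-closed sites (range 1119 to 2355 bp, 15 sites) and 1176 bp for opened sites (784 to 2236 bp, 6 sites). At NR2F1 it was 2093 bp for p63-closed sites (1458 to 2757 bp, 5 sites) and 1575 bp for opened sites (643 to 2862 bp, 10 sites). The medians of the whole lists are 1531 bp for p63-closed sites (quartiles 1179 and 2005 bp) and 1597 bp for opened sites (1222 and 2063 bp). By these medians sites at NR2F2 were narrower than their lists, and p63-closed sites at NR2F1 wider. On the rest of chromosome 15 the medians were 1438 bp for p63-closed and 1723.5 bp for opened sites. On the rest of chromosome 5 they were 1540 and 1570 bp. The ranges of the 2 loci overlap in both lists, the groups are small, and sites are not replicates, so no test was made.

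Members at either end of the range of widths were then counted. None of the 20 p63-closed members was under 1000 bp, where 13.9% of that list is, and 3 of the 16 opened members were, where 11.5% of that list is. The 3 are the 643 bp site at NR2F1, a 769 bp site at NR2F1 from 93226199 to 93226967, and a 784 bp site at NR2F2 from 96859918 to 96860701. Over 2000 bp were 2 of 15 p63-closed and 1 of 6 opened sites at NR2F2, and 3 of 5 p63-closed and 3 of 10 opened sites at NR2F1, where the lists have 25.2% and 27.6% above that width. In all, p63-closed sites covered 22.4 kb and opened sites 8.26 kb of the NR2F2 interval, and 10.5 kb and 16.5 kb of the NR2F1 interval.

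The edges of the intervals fell differently. At NR2F2 the nearest members lay 59.1 kb (p63-closed) and 229 kb (p63-closed) inside the ends, and the nearest sites outside lay 205 kb (opened) and 143 kb (p63-closed) beyond them, so the ends are in sparse stretches. At NR2F1 the nearest members lay 9.50 kb (p63-closed) and 23.4 kb (opened) inside, and the nearest sites outside, both p63-closed, lay 19.1 kb and 31.2 kb beyond. The 100 kb beyond both ends of the NR2F1 interval held 4 p63-closed sites and 1 opened site, and that beyond the NR2F2 interval held 0 of either.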

How the data were processed

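ATAC-seq had been run on 8 samples in 4 groups, and 2 lists of sites made by the authors were analysed. Each deposited list has 4 columns, for the chromosome, both ends and a numbered name of each site, with no count, signal, fold or p-value. Tools named in the submitters' processing notes are Bowtie2, MACS2, DESeq2, SAMtools and FastQC (no versions), with hg19 and GRCh37 as builds. Which tool made which step, the thresholds and any pooling are left unstated by the sources used here. Starts were read as 0-based and are printed 1-based.

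The members and the lists of motifs and settings were chosen with earlier results of these data known. Sites were assigned by their centre. Catalogue entries were read from the numbers in the site names, which run along each chromosome up to 1838350; the number at an interval's ends was interpolated, and 6 jumps in the numbering, all outside the loci, were bridged by distance, giving 1830304 entries. Named sites were, by locus and list, the 2 widest, the closest pairs, the ends of groups (at least 3 sites, each within 50 kb of the next) and the sites at the interval ends; the narrowest sites and runs of one list were added after their values were seen. No tests were made, and intervals are exact (Clopper-Pearson or Poisson, 95%). Site counts per interval, window totals, joining and grouping were tested on simulated lists, and the other measures were not. Alternatives covered interval ends, joining of sites, density per Mb, group distance and motif mismatches. The position of the genes on hg19 and the sequence of the sites were not used here. The genes next to the loci are not reported here. Software was pandas 2.3.3, scipy 1.17.1, numpy 2.4.6 and matplotlib 3.10.9, in Python 3.11.15.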

Additional observations from a re-analysis of the deposited data

How the results depend on the processing

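No paired analysis was possible because neither list has a value for any sample, nor could a replicate be omitted. Of 62 alternatives, 52 stayed within 1.5 times a count, or within the error of a share, density, width or spacing, and 10 did not. At NR2F1 the 5 p63-closed sites became 3 when sites of the same list under 10 kb apart were joined, since both of its close pairs merged, and 9 when the interval was lengthened by 100 kb at both ends. Groups of close sites, counted inside the intervals, went from 3 to 1 at NR2F2 with neighbours within 25 kb. At NR2F1 they went from 1 to 0 within 25 kb and to 2 within 100 kb. With 1 mismatch allowed, which can only add matches, AGGTCA matched 4 times at NR2F2 and 5 times at NR2F1 (89.7% of all promoter windows then match), and GCCNNNGGC 7 and 3 times, in 1 of the 2 windows of each gene (82.9% of all windows match). Shifting the genome windows by 0.5 or 0.6 Mb, chosen after seeing the data, left 1.22% of windows with at least the 15 listed sites of NR2F1, against 1.65%, and 0.198% with at least the 15 p63-closed sites of NR2F2, against 0.118%. Depth is unknown, so regions missing from both lists are not shown to be unchanged.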
